A study of Mus musculus with 23 samples.

Results

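Hepcidin and 8 other genes of iron handling (Hamp, Tmprss6, Hfe, Tfr2, Tfrc, Slc11a2, Slc40a1, Fth1 and Ftl1) were followed in mouse liver after inhalation of particles. The genes were chosen by their listed symbols, and Hamp was put at their head because its ratio was lower after carbon black (CB) in these same arrays. Of the 9 genes 8 were found, each with 1 feature, among the 22575 features of the array, of which 18688 had a listed gene. Fth1, the heavy chain of ferritin, was not analysed here.

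Whole livers came from female C57BL/6 mice aged 12 to 13 weeks by their labels, and each mouse had 1 array. Groups were 8 mice that had inhaled CB (Printex, 20 mg/m3), 7 that had inhaled diesel exhaust particles (DEP, 20 mg/m3 of a standard reference material) and 8 that had breathed filtered air. Exposures lasted 90 min per day on consecutive days, and the labels place sampling 90 min after exposure, whereas the study's methods give a shorter time and younger mice. Liver RNA carried Cy5, a pooled mouse reference RNA carried Cy3, and the dyes were never exchanged. Values are therefore given as the log2 ratio of liver to reference, so that a difference of 1 is a doubling, after loess normalization within each array.

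Across the series, array medians in Cy5 ran from 268 to 549 for CB, 312 to 511 for DEP and 262 to 541.5 for air. Between 59 and 422 features per array stood at the scanner maximum of 65535 in Cy5 and were saturated. The mice had been exposed in 3 rounds, and the second round held 6 CB, 2 DEP and 4 air mice whereas the last held 1, 4 and 2. All 7 measured hepatocyte markers were present on at least 12 of the 23 arrays, as the label of liver calls for. Their mean log2 ratio ran from 4.32 to 5.01 in CB livers, 4.43 to 5.04 in DEP livers and 4.65 to 5.20 in air livers. Of the 7, 5 were saturated on at least 1 array and 2 of those on every array, so these levels are not exact. The measurements were made on whole liver, so fewer cells of a type and less RNA per cell cannot be told apart.

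Hepcidin, the peptide that Hamp encodes, is made by hepatocytes and released into the blood. It binds ferroportin, the exporter of iron encoded by Slc40a1, and causes its breakdown, so that iron stays inside macrophages, hepatocytes and the cells of the gut. Hamp is transcribed in response to iron, through bone morphogenetic proteins (BMP), SMAD proteins, Hfe and Tfr2, and in response to inflammation, through interleukin-6 and STAT3, which is why it counts among the acute phase genes.

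Both inputs act on the Hamp promoter, and the stretch that holds their sites is shown for that reason beside the same stretch of Hamp2, a close copy of the gene. Capitals mark GGCGCC, the core of the BMP response element, and a match to TTCNNNGAA, the STAT site. Sequences are on the coding strand and come from RefSeq (GRCm38.p6), with chr7:30944099-30944158 on the minus strand for Hamp and chr7:30924248-30924307 on the minus strand for Hamp2.
Hamp: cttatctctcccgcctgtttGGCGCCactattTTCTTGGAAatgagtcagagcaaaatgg
Hamp2: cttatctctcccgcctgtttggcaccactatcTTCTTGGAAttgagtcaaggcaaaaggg
In Hamp the sites began 109 and 97 bases before the start of the gene. Counted from 1 at the 5′ end of the Hamp line, 54 of 60 bases were the same in Hamp2, and the substitution G24A lay within the BMP element, so that GGCGCC was not found there. Over the 250 bases before the start 90.8% were identical. On both strands, GGCGCC was in 11.9% and TTCNNNGAA in 8.30% of the 32851 promoter windows of 300 bases, and 0.645% held both. Windows were at hand for 6 of the 9 genes, and apart from Hamp, 1 Tfrc window held GGCGCC whereas none of the others held either site. Which of the copies the Hamp probe (NM_032541) binds is not given in the sources used here, so its signal may hold both.

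Hamp had the lowest ratios in CB livers and the highest in air livers. Its log2 ratio had a lowest value of 2.73, a median of 3.06 and a highest value of 3.25 in CB livers, of 3.09, 3.17 and 3.61 in DEP livers, and of 3.18, 3.71 and 4.45 in air livers. Of the CB values 7 of 8, and of the DEP values 5 of 7, lay below the lowest air value, and 5 of 8 CB values lay below the lowest DEP value. No pair of groups was fully apart. How many of all features reach such partial counts was not determined, and Hamp was chosen for its CB difference. The partial counts are therefore a description only. The shares that follow are for groups fully apart, which those of Hamp were not. Over all features, CB values were all below the air values in 0.0482% and all above them in 0.0107%, DEP values were all below the air values in 0.00535% and all above them in 0.00535%, and CB values were all below the DEP values in 0.0214% and all above them in 0.00535%. Means were 3.05 ± 0.15 in CB livers (SD, n = 8), 3.24 ± 0.19 in DEP livers (SD, n = 7) and 3.70 ± 0.41 in air livers (SD, n = 8). The spread was thus widest in the air group, where mouse 442 had 4.45 and mouse 54 had 3.18. In the liver signal these mice had the opposite order. Less the array median, log2 Cy5 was 7.03 in mouse 442 and 7.64 in mouse 54, whose spot was saturated. Their log2 Cy3 signals were 2.35 and 4.11, the lowest and the highest of the air arrays.

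**Figure D1:**
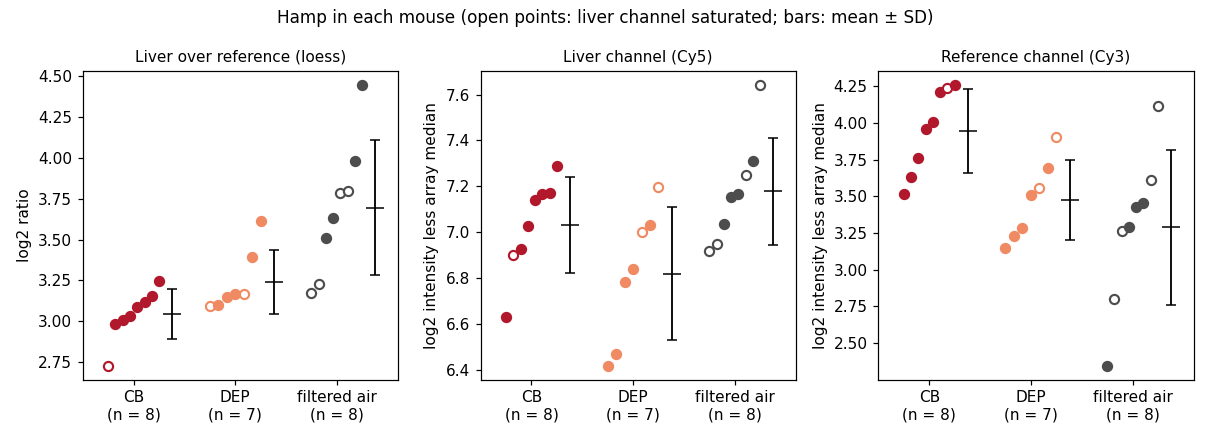
Hamp in each mouse as the log2 ratio of liver to reference (left) and as the log2 signal of the liver channel (middle) and of the reference channel (right), each less the median of its array. Groups run from CB (n = 8) through DEP (n = 7) to filtered air (n = 8), open points mark a saturated liver spot and bars are the mean ± SD. The CB ratios sit between 2.73 and 3.25 and the air ratios between 3.18 and 4.45, whereas the liver channel spans 6.63 to 7.29 in CB mice and 6.92 to 7.64 in air mice, and the mean of the reference channel is highest after CB.

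The log2 ratio of Hamp differed by −0.65 between CB and air (standard error 0.14, 95% confidence interval −0.93 to −0.37). This contrast had been used to choose the gene and is given as a description. DEP minus air was −0.46 (standard error 0.14, 95% confidence interval −0.75 to −0.16, adjusted p = 0.997 by limma over all features), so that it did not pass. Both comparisons share the air mice. CB minus DEP was −0.19 (95% confidence interval −0.49 to 0.10, adjusted p = 1.00 by limma), so that it did not pass either.

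None of the 8 genes was called in any comparison tested. Among all 18688 features limma called 0.00% between DEP and air, where the unadjusted p was under 0.05 for 900 features. It also called 0.00% between CB and DEP (643 features at that unadjusted level) and 0.00% between the last round and the second (1203 features). Between CB and air it called 0.00% too (1110 features), and nothing is read from that count for these genes.

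Hamp was so bright that its liver spot reached the scanner maximum on 1 CB array, 2 DEP arrays and 4 air arrays. On those arrays the Cy5 signal is only a lower bound, so that the differences above and their intervals are not exact. The saturated air mice had ratios of 3.18, 3.23, 3.79 and 3.80, and the other air mice had 3.51, 3.63, 3.98 and 4.45. The saturated CB mouse had the lowest ratio of its group (2.73), and the saturated DEP mice had 3.09 and 3.17.

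The channels were then taken apart. The log2 Cy5 signal of Hamp, less the median of its array, was 7.03 ± 0.21 in CB livers (SD, n = 8), 6.82 ± 0.29 in DEP livers (SD, n = 7) and 7.18 ± 0.23 in air livers (SD, n = 8). The log2 Cy3 signal of Hamp in the common reference was 3.95 ± 0.29 on CB arrays (SD, n = 8), 3.47 ± 0.27 on DEP arrays (SD, n = 7) and 3.29 ± 0.53 on air arrays (SD, n = 8). CB minus air was accordingly −0.15 in the liver channel and 0.66 in the reference channel, which holds the same RNA on every array. The liver spot was saturated on 4 of 8 air arrays, 2 of 7 DEP arrays and 1 of 8 CB arrays. The liver-channel means are thus lower bounds, unequally so between groups, and their differences are not exact. For DEP minus air the liver channel gave −0.36 and the reference channel 0.19. For CB minus DEP the liver channel gave 0.21, the opposite direction to the ratio, and the reference channel 0.47.

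Other bright features had higher reference signals on particle arrays too. Of the 426 features saturated on 1 to 22 arrays, to which Hamp belongs, 89.0% had a higher Cy3 signal after CB than after air, with a median log2 difference of 0.22. The median was 0.58 for the 30 features saturated on every array and 0.01 over all features. After DEP the corresponding medians were 0.16, 0.41 and 0.01. How far this accounts for the Hamp ratio was not tested. By median centring in place of loess the CB minus air difference of Hamp was −0.91. By the Cy5 signal alone, quantile normalized, it was −0.14, against −0.65 by loess. Its size thus depended strongly on the scaling. Its direction did not turn, but this contrast had been used to choose the gene.

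Tmprss6, matriptase-2, is a hepatocyte protease that cuts hemojuvelin and so holds Hamp transcription down. Its log2 ratio had a lowest, median and highest value of 3.16, 3.72 and 3.95 in CB livers, 3.65, 3.90 and 4.04 in DEP livers and 3.58, 3.90 and 4.30 in air livers. Only CB mouse 835436 was below all air mice. The difference was −0.24 for CB minus air (standard error 0.12) and −0.06 for DEP minus air (standard error 0.13, adjusted p = 0.997 by limma). Without CB mouse 835436 the CB difference was −0.16, and with the Cy5 signal alone, quantile normalized, it was 0.06.

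Hfe and Tfr2 encode the hepatocyte proteins through which the saturation of transferrin reaches Hamp. The Hfe log2 ratio averaged 2.46 ± 0.34 in CB livers (SD, n = 8), 2.56 ± 0.39 in DEP livers (SD, n = 7) and 2.51 ± 0.39 in air livers (SD, n = 8), and the ranges lay over one another. Hfe differed by −0.05 for CB minus air (standard error 0.17) and by 0.05 for DEP minus air (standard error 0.18, adjusted p = 0.997 by limma).

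Tfr2 is transferrin receptor 2, which is made mainly in hepatocytes. Its log2 ratio had a lowest, median and highest value of 4.41, 5.14 and 5.34 in CB livers, −0.48, 5.37 and 5.51 in DEP livers and 5.09, 5.32 and 6.07 in air livers. The value of −0.48 belonged to DEP mouse 51, whose liver spot read 275 against 12254 to 47258 in the other DEP mice, and whose reference spot read 265.5. This was the same mouse that had the highest Slc40a1 ratio and a saturated Ftl1 spot, and its array had the most saturated features (422). DEP minus air was −0.98 with all mice (standard error 0.57, adjusted p = 0.997 by limma) and −0.15 without mouse 51. CB minus DEP turned with the same mouse, being 0.59 with it (adjusted p = 1.00 by limma) and −0.23 without it.

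**Figure D2:**
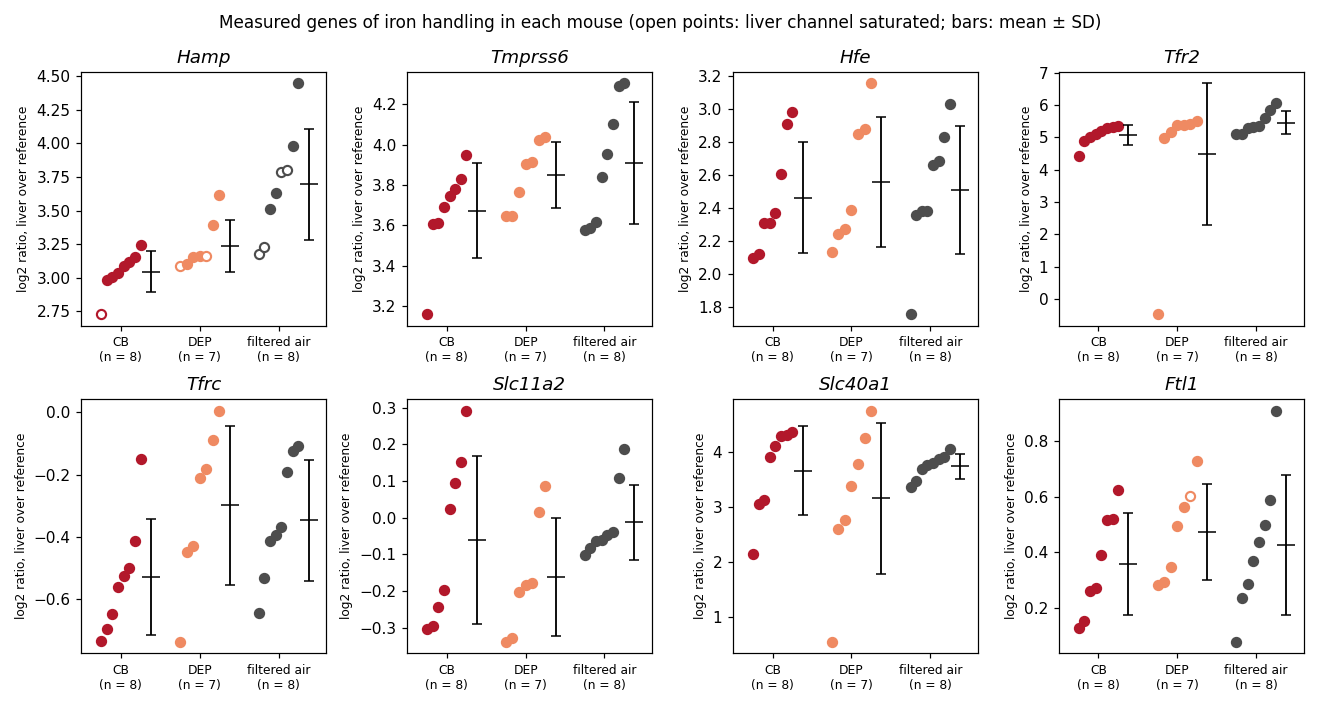
Log2 ratio of liver to reference of the 8 measured genes in each mouse, with CB (n = 8), DEP (n = 7) and filtered air (n = 8) from left to right, bars at the mean ± SD and open points for saturated liver spots. Axes differ between panels and levels are not comparable between genes. In every gene the groups overlap, with single low mice in Tfr2 (−0.48 in a DEP mouse) and Slc40a1 (0.55 in a DEP mouse).

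Tfrc encodes transferrin receptor 1, which takes up iron bound to transferrin. Its liver spot was flagged absent on 8 of 8 CB, 5 of 7 DEP and 6 of 8 air arrays, so that it was mostly not above background. Ratios averaged −0.53 ± 0.19 in CB livers (SD, n = 8), −0.30 ± 0.25 in DEP livers (SD, n = 7) and −0.35 ± 0.19 in air livers (SD, n = 8). Slc11a2, the divalent metal transporter that moves iron out of endosomes, averaged −0.06 ± 0.23 in CB livers (SD, n = 8), −0.16 ± 0.16 in DEP livers (SD, n = 7) and −0.01 ± 0.10 in air livers (SD, n = 8). For DEP minus air, Tfrc differed by 0.05 (95% confidence interval −0.18 to 0.28) and Slc11a2 by −0.15 (95% confidence interval −0.35 to 0.05), both with adjusted p = 0.997 by limma.

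Slc40a1, ferroportin, showed wider scatter in the particle groups than in air. Its log2 ratio had a lowest, median and highest value of 2.13, 4.01 and 4.36 in CB livers, 0.55, 3.38 and 4.75 in DEP livers and 3.36, 3.77 and 4.06 in air livers. In the CB group 3 mice were below and 4 were above all air mice, and in the DEP group 3 were below and 2 above. The SD was 0.81 in the CB group, 1.38 in the DEP group and 0.23 in the air group, and this difference in spread was not tested. The low values belonged to CB mouse 58, with a liver signal of 713, and DEP mouse 55, with a liver signal of 279 that was flagged absent. Air mice read 3179 to 12964.5. The reference spots of CB mouse 58 and DEP mouse 55 were dim too, at 153 and 132, and flagged absent. On air arrays the reference spot read 320 to 721. These low ratios, which enter the SDs, thus came from spots that were dim in both channels. DEP minus air was −0.59 with all mice (standard error 0.42, adjusted p = 0.997 by limma) and −0.15 without DEP mouse 55. CB minus air was −0.08 (standard error 0.41) and became 0.14 without CB mouse 58 and 0.01 without CB mouse 835436.

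Ftl1, the light chain of ferritin, which stores iron in the cell, had nearly the same ratio in all groups. It averaged 0.36 ± 0.18 in CB livers (SD, n = 8), 0.47 ± 0.17 in DEP livers (SD, n = 7) and 0.42 ± 0.25 in air livers (SD, n = 8). CB minus air was −0.07 (standard error 0.11) and DEP minus air was 0.05 (standard error 0.11, adjusted p = 0.997 by limma). The ratio hid dim Ftl1 spots on a pair of CB arrays, since CB mouse 58 read 1628 in the liver channel and 1546 in the reference channel and CB mouse 446 read 8179.5 and 7049. Air mice read 16681 to 56459.5 in the liver channel and 11791 to 24831 in the reference channel. With the liver channel alone CB minus air was therefore −0.86.

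**Figure D3:**
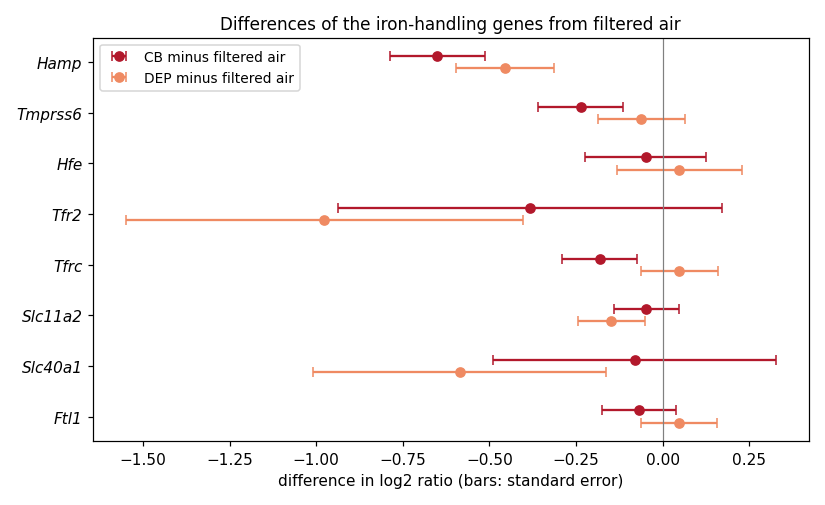
Difference in log2 ratio of CB minus filtered air and of DEP minus filtered air for the 8 measured genes, with the standard error as bars. Hamp stands at −0.65 after CB and −0.46 after DEP with standard errors of 0.14, and Tfr2 and Slc40a1 have the widest bars. Both comparisons use the same 8 air mice, and the CB difference of Hamp was used to choose it.

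Within each exposure round the group values of Hamp, as means or single mice, had the same order. The rounds split the arrays in which Hamp was chosen for its CB difference, so this order is a description only. Single mice did not keep to it. In the first round air mouse 53 (3.23) was below DEP mouse 55 (3.39), and in the second air mouse 54 (3.18) was below CB mouse 446 (3.25). In the second round the log2 ratio averaged 3.04 in 6 CB mice, 3.13 in 2 DEP mice and 3.76 in 4 air mice. In the last round it was 3.01 in the single CB mouse and averaged 3.26 in 4 DEP mice and 3.65 in 2 air mice. In the first round it was 3.12 in the CB mouse, 3.39 in the DEP mouse and 3.61 on average in 2 air mice. Within the second and the last round, CB minus air was −0.72 and −0.65, and DEP minus air was −0.63 and −0.40 (adjusted p = 0.998 and 0.929 by limma).

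The last round minus the second was −0.01 for Hamp (standard error 0.15, adjusted p = 0.995 by limma), and the smallest adjusted p of the 8 genes was 0.842, for Tmprss6 (−0.18, standard error 0.12). When it was asked whether the particle difference itself changed with the round, 0.00% of features passed, with 1123 at an unadjusted p under 0.05. Hamp gave 0.25 (95% confidence interval −0.35 to 0.85, adjusted p = 0.916 by limma), and Ftl1 had the smallest adjusted p of these genes, 0.825, with a difference of 0.34 (standard error 0.18).

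Genes around Hamp in the pathway were taken from lists, and in none of them was a gene called by limma in any comparison. The differences are given beside a median over all features of 0.00 for both particles, of which 49.8% were lower after CB and 50.0% lower after DEP. Of 13 measured genes of the BMP and SMAD inputs, 8 were lower after CB (median −0.02) and 6 after DEP (median 0.01). Furin, a protease that cuts hemojuvelin, differed by −0.19 for CB minus air and −0.03 for DEP minus air. Smad1, which carries the BMP signal, differed by −0.13 and −0.12, and its inhibitor Smad6 by 0.04 and 0.13 in the same order.

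Of 9 genes of the interleukin-6 and STAT3 inputs, 7 were lower after CB (median −0.11) and 7 after DEP (median −0.11). Creb3l3, a hepatocyte transcription factor of the acute phase, averaged 3.30 ± 0.23 in CB livers (SD, n = 8), 3.60 ± 0.22 in DEP livers (SD, n = 7) and 3.70 ± 0.40 in air livers (SD, n = 8). Socs3, which is induced by STAT3 and restrains it, averaged −1.39 ± 0.40 in CB livers (SD, n = 8), −1.38 ± 0.20 in DEP livers (SD, n = 7) and −1.09 ± 0.41 in air livers (SD, n = 8). The interleukin-1 receptor gene Il1r1 differed by −0.27 for CB minus air and by −0.16 for DEP minus air. For DEP minus air each of these 3 genes had an adjusted p of 0.997 by limma.

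Among 10 genes for carriers of iron and haem in plasma, and for receptors and other proteins that act with them, 7 were lower after CB (median −0.08) and 6 after DEP (median −0.06). Transferrin (Trf) and haptoglobin (Hp) were saturated on all 23 arrays and give no fold. Haemopexin (Hpx), which binds free haem, was saturated on 21 arrays. Trf, Hp and Hpx are all counted as lower in both comparisons and enter the medians, so these counts rest in part on saturated spots. Cd163, the macrophage receptor for haemoglobin bound to haptoglobin, differed by −0.19 for CB minus air and −0.12 for DEP minus air, and Slc22a17, a receptor for lipocalin-2, by 0.08 and 0.20. The SD of Cd163 was 0.94 in CB livers, 0.78 in DEP livers and 0.55 in air livers, well above either difference. That of Slc22a17 was 0.27, 0.42 and 0.72 in the same order, also above either of its differences.

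Of 11 genes for uptake, reduction and movement of iron in cells, 3 were lower after CB (median 0.06) and 8 after DEP (median −0.05). Slc25a37, mitoferrin, which carries iron into mitochondria, differed by 0.18 for CB minus air and 0.10 for DEP minus air. Pcbp2, an iron chaperone, differed by 0.17 and 0.13, and Ncoa4, which delivers ferritin to the lysosome, by −0.17 and −0.05. The iron regulatory proteins, encoded by Aco1 and Ireb2, bind the messages of Tfrc, ferritin and ferroportin. Not all of the 3 genes measured in their list encode these proteins. Aco1, saturated on 2 arrays, differed by −0.17 and −0.20 and Ireb2 by 0.01 and −0.05 in that order.

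Haem synthesis and breakdown showed 5 of 12 genes lower after CB (median 0.01) and 6 after DEP (median −0.01). Alad differed by −0.10 for CB minus air and −0.22 for DEP minus air, Uros by 0.16 and 0.19, and Blvra, which reduces biliverdin, by 0.06 and 0.32. The SD of Blvra was 0.14 in CB livers, 0.57 in DEP livers and 0.18 in air livers, so that the spread after DEP exceeded the difference. Of 4 genes of iron-sulphur clusters, 2 were lower in either comparison (medians 0.01 and −0.01). Of these, the scaffold gene Iscu differed by 0.03 for CB minus air and 0.07 for DEP minus air, Isca1 by −0.05 and −0.14, and Glrx5 by 0.03 and −0.06.

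Markers of other cells were read beside Hamp because hepcidin responds to red cell production and macrophages hold much of the iron of the body. Of 5 erythroid markers, 1 of them saturated on every array, 4 were lower after CB and 3 after DEP. The mean log2 ratio of the 4 that were present on at least 12 arrays ran from 2.03 to 2.87 in CB livers, 2.08 to 2.89 in DEP livers and 2.56 to 3.04 in air livers. That mean includes the marker saturated on every array and is not exact. For CB minus air and DEP minus air in that order, Hbb-b2 differed by −0.50 and −0.31, Alas2 by −0.10 and −0.19, Slc4a1 by −0.06 and 0.14, and Epb42, absent on 19 arrays, by 0.12 and 0.08, whereas Hba-a1 was saturated on every array and gives no fold. Hbb-b2 was singled out after its values were seen, and averaged 4.29 ± 0.44 in CB livers (SD, n = 8), 4.47 ± 0.34 in DEP livers (SD, n = 7) and 4.78 ± 0.36 in air livers (SD, n = 8), with 9 saturated spots. Of 7 hepatocyte markers, 4 were lower after CB and 6 after DEP. Saturation touched 5 of these 7, and 2 of them on every array. Of 7 Kupffer cell markers 4 were lower in either comparison, and their mean ran from 1.16 to 1.96 in CB livers, 1.11 to 2.20 in DEP livers and 1.31 to 1.74 in air livers. The part of these cells in the Hamp values was not tested.

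Lower values were also counted for 3 of 8 neutrophil markers after CB and 2 after DEP, for 5 and 3 of 7 markers of sinusoidal endothelium, for 4 and 2 of 7 of stellate cells, and for 6 and 1 of 7 of pancreatic acinar cells. No marker of any of these lists was called by limma.

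Whether the Hamp ratio moved from mouse to mouse with that of other genes was asked over all 23 mice for 11 genes. They were the other measured genes of the set and Id1, Socs3, Saa3 and Lcn2. Iron stores were not measured. No relation passed. The largest was with Socs3 (Pearson's r = 0.48, permutation p = 0.0195, adjusted p = 0.215 over 11 genes; Spearman's rho = 0.36, permutation p = 0.0951, adjusted p = 0.371), and without the 2 mice farthest from the Socs3 median r was 0.36. Tmprss6 gave r = 0.38 (permutation p = 0.0780, adjusted p = 0.308; rho = 0.43, permutation p = 0.0418, adjusted p = 0.371), which fell to 0.20 without the 2 farthest mice. After the mean of each group was subtracted Socs3 gave r = 0.34 (permutation p = 0.114, adjusted p = 0.335), which fell to 0.00 without the 2 farthest mice, and with the liver channel alone it gave r = 0.16 (permutation p = 0.463, adjusted p = 0.979). Within the second round, whose 12 mice mix 6 CB, 2 DEP and 4 air mice and whose group means were not subtracted, Socs3 gave r = 0.85 (permutation p = 0.00347, adjusted p = 0.0382) but rho = 0.38 (permutation p = 0.220, adjusted p = 0.991), and within the last (7 mice) r was −0.02 (exact permutation p = 0.966).

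The ratio of Ftl1 ran against that of Hamp once group means were subtracted, but not in the liver channel alone. Over all mice r was −0.37 (permutation p = 0.0840, adjusted p = 0.308; rho = −0.32, permutation p = 0.138, adjusted p = 0.371). After the mean of each group was subtracted r was −0.66 (permutation p = 0.00066, adjusted p = 0.00726 over 11 genes) and rho was −0.64 (permutation p = 0.00133, adjusted p = 0.0146), with r = −0.55 without the 2 farthest mice. For these p values mice were permuted across groups, although the SD of Hamp was 0.15 in CB livers and 0.41 in air livers. They are therefore approximate, and their adjustment covers this setting alone. Within groups r was −0.44 in CB mice, −0.65 in DEP mice and −0.76 in air mice (exact permutation p = 0.291, 0.116 and 0.0326, adjusted p = 0.837, 0.566 and 0.359). By round, without subtracting group means, r was −0.10 in the second (permutation p = 0.766, adjusted p = 0.843) and −0.90 in the last (exact permutation p = 0.0119, adjusted p = 0.131), neither of which passed, and the difference between the rounds was not tested. With the liver channel alone r was −0.01 over all mice (permutation p = 0.943) and 0.01 after the group means were subtracted (permutation p = 0.976). These values depended on single mice. Without the 2 farthest mice r was 0.17 over all mice (CB mice 58 and 446 left out). After the group means were subtracted it was 0.33 (CB mice 58 and 835436 left out). Both ratios share the reference channel and the loess curve of their array, and Hamp was saturated on 7 of the arrays.

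**Figure D4:**
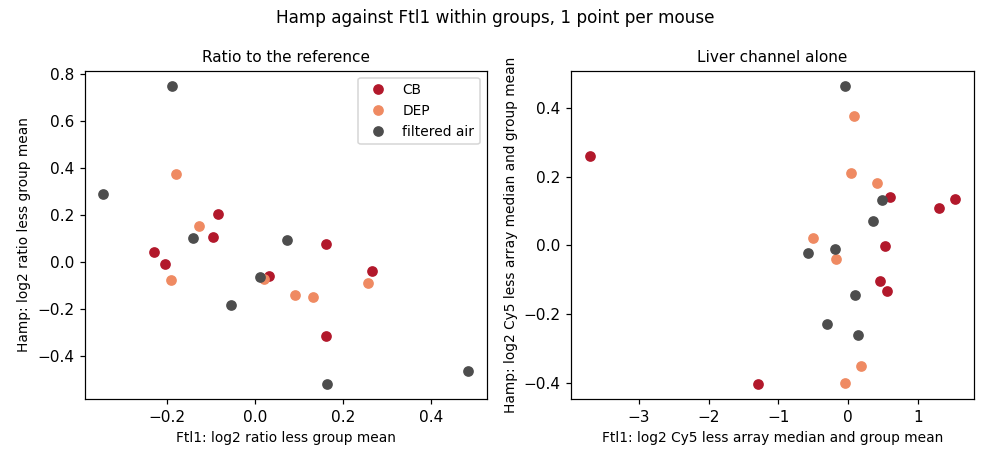
Hamp against Ftl1 in each of 23 mice, both less the mean of their group, as log2 ratio to the reference (left) and as log2 signal of the liver channel less the array median (right). With the ratio r is −0.66, and with the liver channel alone it is 0.01, where CB mouse 58 lies far to the left.

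Genes whose ratio followed that of Hamp most closely were sought among 7003 features that were present and below saturation on all 23 arrays. They were Nipsnap1 (r = 0.70), Abhd11 (r = 0.70), Grik5 (r = 0.69), Clip1 (r = 0.67) and Nsrp1 (r = 0.67). Those that ran most strongly against it were Bcap29 (r = −0.76), 2210418O10Rik (r = −0.72) and Prpf38a (r = −0.70). These were picked as extremes over the same 23 arrays and are a description only. Nipsnap1, encoding a mitochondrial protein, averaged 2.57 in CB livers, 2.49 in DEP livers and 2.88 in air livers, and Bcap29, encoding a protein of the endoplasmic reticulum, averaged −1.09, −1.12 and −1.41 in the same order.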

How the data were processed

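Liver RNA of 23 mice (8 CB, 7 DEP, 8 air) was hybridised to Agilent 2-colour arrays. The authors deposited the median spot intensity of each channel (linear, background not subtracted), flags of absent spots, and log2 ratios that they had normalized by lowess within each array in R 2.4.1. A spot had been flagged absent where it did not clear a limit set from a negative control probe.

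Here ratios were computed from the deposited intensities by loess within each array (limma 3.58.1, R 4.3.3) over the 18688 features with a listed gene, and 3887 others were left out since control spots among them could not be told apart. No feature was filtered by signal. All groups were fitted in 1 model by lmFit and eBayes, with Benjamini-Hochberg adjustment over these features and a threshold of 0.05. The last round against the second was fitted with group in the model, and the change of the particle difference with the round over the mice of both rounds. Relations across mice were tested by two-sided permutation (100000 resamples, exact below 10 mice; Python 3.11.15, numpy 2.4.6). Mice were permuted across groups, also where group means had been subtracted. The model was tested on simulated data.

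The genes, lists and tests were chosen with earlier results of these data known, so no p is given for these genes between CB, or both particles together, and air. Named beside them were up to 3 genes of each iron list with the largest difference between particles and air that were absent on fewer than 12 arrays and not saturated on all 23, and the 5 genes most like Hamp and the 3 least like it. The erythroid markers were named outside this rule, after their values were seen. Where a gene had several features the brightest was used. Groups came from the labels. Mice are separate animals, numbered as in the labels. The number of arrays limits the precision. Promoter windows were aligned with Biopython 1.88. Alternatives tried were median centring, the deposited log2 ratios, Cy5 alone, Aquantile, normexp background (offset 50), only features present on at least 12 arrays, all features, round or array set (5 sets) as a block, exposure day (6 days) as a random block, single rounds, array weights and leaving out each mouse. Cy5 alone less the group means was added for the relations after seeing the data.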

Additional observations from a re-analysis of the deposited data

Results flagged for a closer look

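Of 30 groups of values examined for a mouse far from the rest (8 genes in 3 groups, and both channels of Hamp), 2 held one. Chance would give about 1 in 20. DEP mouse 51 had a Tfr2 log2 ratio of −0.48, the lowest of 7, with the next lowest at 4.97. CB mouse 835436, the only CB mouse of the last round, had a Tmprss6 log2 ratio of 3.16, the lowest of 8, with the next lowest at 3.61.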

How the results depend on the processing

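No feature passed for DEP minus air under any alternative run. For CB minus air 285 features passed with median centring (15 of them higher, with the median of all features at −0.11), 50 within the last round, which holds a single CB mouse assumed to vary like the others, 1 with array weights and 0 to 1 on leaving out a mouse (1 without CB 59 or air 442). For CB minus DEP 100 passed within the last round. For both particles minus air 46 passed with median centring, 1 among features present on at least 12 arrays and 0 to 2 on leaving out a mouse (2 without air 442). For the last round minus the second 1 passed with median centring, 4 with the array set as a block and 0 to 1 on leaving out a mouse. For the change with the round 1 passed with Cy5 alone by either scaling and 0 to 36 on leaving out a mouse (36 without air 835432, 11 without air 835433). Of the 11 relations of Hamp, 1 passed with group means subtracted (Ftl1) and 1 within the second round (Socs3). Causes were not tested.

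Over 853 refits of the differences of these genes that carried a test, 0 passed (smallest adjusted p = 0.145) and 49 changed sign. Hamp stayed lower after CB (−0.91 to −0.14) and after DEP (−0.63 to −0.25, smallest adjusted p = 0.603) than in air in all of its refits, leaving out mice included. The refits reuse the arrays in which Hamp was chosen for its CB difference, and the DEP comparison shares the air mice. The constant direction is therefore a description only. The CB minus DEP difference of Hamp was 0.21 and 0.12 with Cy5 alone. No paired analysis was possible because the labels give the groups no shared replicate numbers. With the round, array set or exposure day as a block, CB minus air of Hamp was −0.65, −0.71 and −0.65. Aquantile leaves ratios as they are and so gave the same values. Saturation, absent flags and the number of mice limit Hamp, Tfrc and every comparison.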
